A study of Mus musculus with 7 samples.

Results

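The open chromatin regions (OCRs) around Lmo2 and Lyl1 were taken from the 7 deposited peak lists of HPC7, a mouse hematopoietic progenitor cell line. An OCR belonged to the Lmo2 locus when it overlapped the gene body or the 100 kb on either side of it, and to the Lyl1 locus when it overlapped the gene body or the 30 kb on either side. With peaks of different libraries joined into 1 OCR whenever they had 1 or more bases in common, 45 OCRs lay in the Lmo2 window and 19 in the Lyl1 window, 64 of the 144931 merged OCRs of the genome. Bulk ATAC-seq uses the Tn5 transposase to insert adapters into accessible DNA, and the cells were grown in Iscove's medium with stem cell factor and calf serum. The labels give all 7 libraries, HPC7-1, HPC7-2 and HPC7-4 to HPC7-8, the same condition and no treatment, and the paper describes them as separate culture batches of this line. A bulk profile averages over cells, so that a larger share of open cells and a more open site in each cell cannot be told apart.

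LMO2 is a LIM-only protein that binds no DNA itself and bridges a complex of TAL1 or LYL1, an E protein, GATA factors and LDB1 on DNA. LYL1 is a basic helix-loop-helix factor related to TAL1, which pairs with E proteins at E-box sequences. Both genes are used in blood stem and progenitor cells, and both were found through translocations in T-cell acute lymphoblastic leukaemia.

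Lmo2 occupies chr2:103957986-103981878 on the plus strand of mm10 and has 8 annotated transcripts, of which the 5′-most start defines position 0 here. Further starts lie 11.5 kb, 12.1 to 12.3 kb and 13.2 kb downstream of it. The single Lyl1 transcript occupies chr8:84701457-84704715, also on the plus strand, and is 3.26 kb long. Trmt1, a tRNA methyltransferase gene, ends 1.65 kb upstream of the Lyl1 start, and the annotated span of Nfix, a nuclear factor I gene on the minus strand, covers all of Lyl1.

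GATA factors, ETS factors, E-box-binding factors and RUNX1 are the regulators known to act on these genes. For this reason, sequences at the summits of some of the OCRs are shown first. They are reference sequences of GRCm38 (mm10), plus strand, 151 bases centred on the median summit of the 7 libraries. Capitals mark matches, on either strand, to the GATA motif AGATAA, the ETS motif CAGGAAG or its variant CCGGAAG, the E-box CAGCTG or its variants with other inner bases, CAGATG or else CAGGTG, the RUNX motif TGTGGT, the CTCF core consensus, or a composite of an E-box (CANNTG) followed after 7 to 9 bases by a GATA. The CAGCTG letters can lie inside a composite, and no other overlap was found in the sequences shown. The 5 distal OCRs of Lmo2 with the highest mean fold enrichment come first, at chr2:103893869-103894019, chr2:103872021-103872171, chr2:103896289-103896439, chr2:103945848-103945998 and chr2:103881220-103881370.
Lmo2 -64.0 kb: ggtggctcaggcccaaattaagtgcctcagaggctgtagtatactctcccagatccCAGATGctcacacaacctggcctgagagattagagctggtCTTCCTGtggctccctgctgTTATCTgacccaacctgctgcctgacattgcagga
Lmo2 -85.9 kb: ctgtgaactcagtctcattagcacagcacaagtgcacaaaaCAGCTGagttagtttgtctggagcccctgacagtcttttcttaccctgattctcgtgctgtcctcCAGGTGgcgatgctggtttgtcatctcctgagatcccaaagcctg
Lmo2 -61.6 kb: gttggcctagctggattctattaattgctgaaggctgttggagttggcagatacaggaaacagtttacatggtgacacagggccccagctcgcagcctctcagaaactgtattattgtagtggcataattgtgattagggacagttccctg
Lmo2 -12.1 kb: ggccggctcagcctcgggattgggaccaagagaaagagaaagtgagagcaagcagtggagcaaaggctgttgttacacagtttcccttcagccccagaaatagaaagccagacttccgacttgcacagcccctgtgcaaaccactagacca
Lmo2 -76.7 kb: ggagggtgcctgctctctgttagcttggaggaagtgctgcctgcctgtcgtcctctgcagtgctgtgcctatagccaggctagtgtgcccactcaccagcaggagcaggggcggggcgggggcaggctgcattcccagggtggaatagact

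The OCR 64.0 kb upstream held 1 AGATAA, 1 CAGGAAG and 1 CAGATG, and the OCR 85.9 kb upstream held 1 CAGCTG and 1 CAGGTG. The other 3 windows held none of the letters searched, which says nothing beyond these 151 bases and these motifs. The OCRs at the 5′-most Lmo2 start and 11.6 kb downstream of it, not shown, also held none in windows of this length. Among the 40438 distal OCRs of the genome with a peak in every library, 14.4% of windows of this length held AGATAA, 17.2% CAGGAAG, 16.0% CAGATG, 12.1% CAGCTG and 9.44% CAGGTG.

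For Lyl1, the highest summit (chr8:84700008-84700158), the strongest distal OCR (chr8:84730889-84731039) and 216 bases ending just before the first RefSeq exon (chr8:84701207-84701422) are given. The last was taken from the RefSeq promoter table for GRCm38.p6, in which Lyl1 matched by symbol.
Lyl1 -1.4 kb: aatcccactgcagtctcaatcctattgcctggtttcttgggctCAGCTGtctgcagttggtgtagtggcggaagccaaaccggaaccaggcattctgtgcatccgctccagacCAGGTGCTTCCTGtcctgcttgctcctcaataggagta
Lyl1 promoter: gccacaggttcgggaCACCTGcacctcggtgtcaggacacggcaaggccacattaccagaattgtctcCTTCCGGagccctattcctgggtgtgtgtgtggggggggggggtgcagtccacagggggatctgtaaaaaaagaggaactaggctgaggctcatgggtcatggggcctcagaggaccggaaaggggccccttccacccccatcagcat
Lyl1 +29.5 kb: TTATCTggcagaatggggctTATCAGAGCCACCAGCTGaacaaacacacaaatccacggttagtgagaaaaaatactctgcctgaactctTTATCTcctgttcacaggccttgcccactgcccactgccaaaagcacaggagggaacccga

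The summit 1.4 kb upstream of Lyl1 held the E-box CAGCTG, the E-box CAGGTG and, directly beside the latter, the ETS motif CAGGAAG on the minus strand. The promoter stretch held CAGGTG and CCGGAAG on the minus strand, which 15.3% and 4.80% of 32841 promoter entries of the same length also did. In the OCR 29.5 kb downstream there were 2 AGATAA matches and 1 composite, on the minus strand, whose E-box part is the CAGCTG that was also matched by itself. A composite stood in 2.26% of the distal OCRs with a peak in every library, and in 1.91% of all 66979 OCRs with a peak in every library.

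The lists held 84593 to 132852 OCRs per library. Fold enrichment is the pile-up of reads at the summit relative to 1 background level per library, taken here to have 1 read added to both, and this derived background lay between 4.44 reads in HPC7-2 and 20.4 reads in HPC7-1. It was not scaled between libraries. Each OCR is therefore also given as an intensity percentile, the share of the OCRs of the same library with an equal or lower fold enrichment. The labelled cell type was set against promoter OCRs, which 60.8% of protein-coding genes had in every library. All 8 blood progenitor genes of the list (Kit, Cd34, Ptprc, Spi1, Runx1, Tal1, Gata2 and Myb) had one in every library, the weakest at Ptprc with a median of 32.4. Of 10 genes of other cells, 4 had one in every library. Among them were Myod1 with a mean fold enrichment of 9.36, Col1a1 with 14.0 and Cdh5 with 33.5. The median at Cdh5, 33.3, was above the median at Ptprc. Another 4 (Alb, Ms4a1, Hbb-bs and Hbb-bt) had none in any library.

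In the Lmo2 window, 24 of 45 merged OCRs (53.3%) had a peak in every library, where 46.2% of all merged OCRs did. Another 13 were found in 2 to 6 libraries and 8 in a single library, of which 6 in HPC7-1, the library with the longest list. OCRs missing from at least 1 library were all weak, with a fold enrichment of at most 6.36 and a percentile of at most 58.0. By position, 2 of the 45 lay within 3 kb of an Lmo2 start, 5 within 3 kb of a start of another gene and 38 away from any annotated start, the last called distal from here on. Of the 38 distal OCRs 20 had a peak in every library, against 41.9% of the distal OCRs of the genome. When peaks had to overlap reciprocally by 50%, 18 OCRs of the Lmo2 window had a peak in every library.

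The Lmo2 start region with the most accessible chromatin was not the 5′-most one. An OCR with its summit 11.6 kb downstream, 17 bp past the transcript start at 11.5 kb, had fold enrichments of 107, 104, 104, 136, 69.6, 86.9 and 122 in HPC7-1, HPC7-2, HPC7-4, HPC7-5, HPC7-6, HPC7-7 and HPC7-8. It ranked between the 94.3 and the 97.1 percentile of its library, and its summits lay within 16 bp of each other. The median spread of OCRs found in every library was 72 bp, and 4.60% of them had a spread of 16 bp or less. The OCR at the 5′-most start, with its summit 0.127 kb upstream, had fold enrichments of 15.2, 17.1, 18.0, 20.7, 14.4, 16.0 and 22.1 in the same order. The values of the 2 start regions did not overlap: the downstream one was 5.90 ± 0.735 times as high (SD, n = 7; range 4.84 to 7.02).

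The strongest distal OCR of Lmo2 lay 64.0 kb upstream, in intergenic sequence, with the GATA, ETS and E-box matches shown above at its summit. Its fold enrichments were 88.6, 72.0, 79.5, 104, 59.4, 68.0 and 96.7 in HPC7-1, HPC7-2, HPC7-4, HPC7-5, HPC7-6, HPC7-7 and HPC7-8. In every library it was below the OCR 11.6 kb downstream, which was 1.28 ± 0.0890 times as high (SD, n = 7). Its percentile ranged from 92.6 to 95.3, and among the 40438 distal OCRs with a peak in every library it ranked 941 by mean fold enrichment.

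Next in order were 2 upstream OCRs that could not be separated from each other. The OCR 85.9 kb upstream had fold enrichments of 76.0, 57.7, 63.3, 84.4, 39.7, 64.9 and 81.3, and the OCR 61.6 kb upstream 74.2, 55.5, 63.7, 75.3, 40.8, 52.6 and 67.4, libraries in the order above. The former was higher in 5 of 7 libraries, by a log2 ratio of 0.11 ± 0.14 (SD), so that the difference was within its spread. Against the OCR 64.0 kb upstream, the OCR 85.9 kb upstream was lower in 7 of 7 libraries, by a log2 ratio of 0.30 ± 0.15.

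The OCR 12.1 kb upstream was the strongest distal one close to the gene, with 51.6, 39.1, 44.4, 47.5, 27.4, 44.0 and 48.2. It was followed by the OCRs 76.7 kb upstream (38.2, 30.1, 37.0, 39.8, 23.8, 34.8 and 58.5) and 56.3 kb upstream (45.4, 35.8, 35.4, 38.1, 23.9, 29.1 and 35.7). Neighbours among these 3 differed by less than the spread of their log2 ratio. Their percentiles lay between 82.1 and 91.0 over all libraries.

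Distal OCRs found in every library were unevenly spread along the Lmo2 window. Between 92 and 51 kb upstream there were 9 of the 20, with mean fold enrichments from 7.15 to 81.2, and these included 5 of the 6 named above. Closer to the gene, 31 to 12 kb upstream, there were 4, with means from 6.76 to 43.2, and none lay between these groups, which were 19.5 kb apart. Within the gene body there were 3, of which the one in the intron 4.6 kb downstream of the 5′-most start had the highest mean fold enrichment, 26.8, and the other 2 had means of 4.26 and 5.27. Beyond the gene end there were 4, with means from 6.13 to 25.1. The strongest of these, 24.4 kb from the start, lay past the 3′ end of the gene, which only the peak of HPC7-1 reached. This OCR held the 1 CTCF core match found in the window's 24 OCRs, where 5.55% of all OCRs found in every library held one.

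Over the 20 distal OCRs, 3 had a mean percentile of at least 90, 12 of at least 75 and 3 under 50. The summit of the weak OCR 22.4 kb downstream moved by 2020 bp between libraries, while the summits of the other 19 stayed within 107 bp. The strongest OCR of another gene in the window was the shared start region of Fbxo3, an F-box gene, and 4931422A03Rik, a minus-strand gene that overlaps the 3′ part of Lmo2. It lay 69.8 kb downstream with fold enrichments from 50.1 to 74.0, and differed from the OCR 61.6 kb upstream by less than the spread of the log2 ratio.

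**Figure D1:**
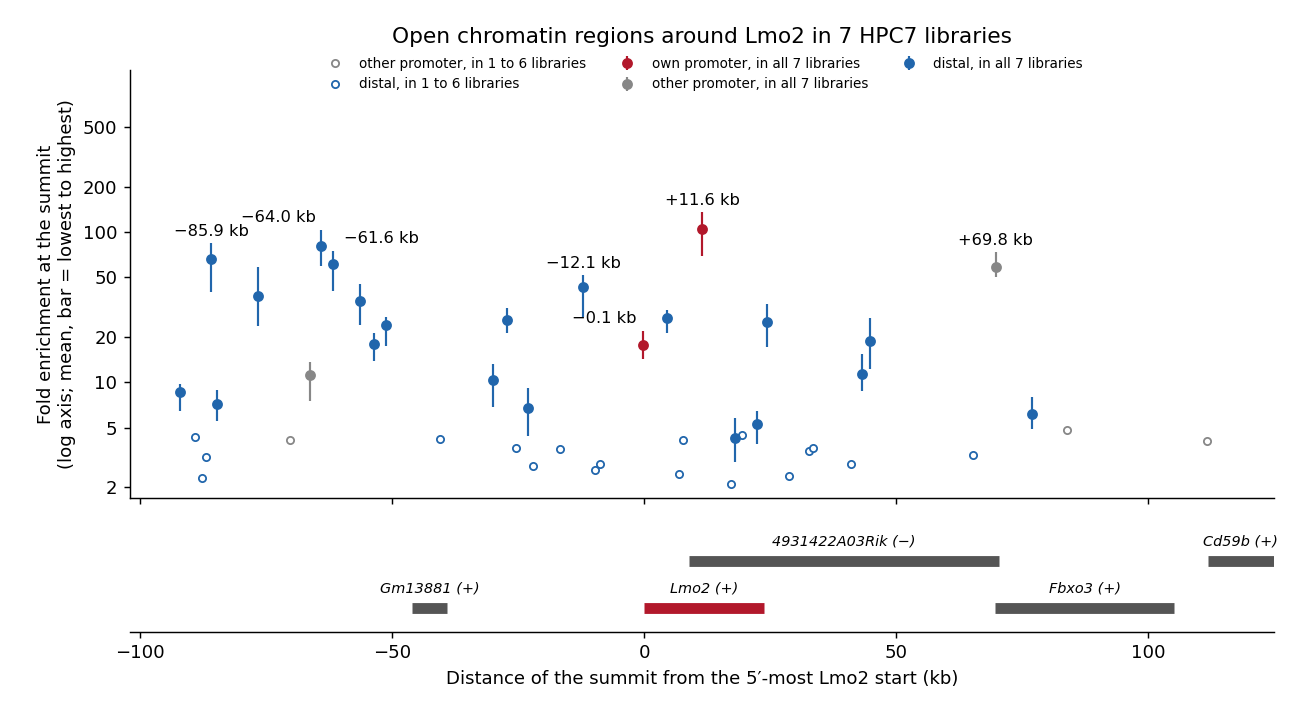
OCRs of the Lmo2 window by distance of the summit from the 5′-most Lmo2 start in kb (x) and fold enrichment on a log axis (y); filled points with bars are means with the lowest and highest of 7 libraries, open points are means of OCRs found in 1 to 6 libraries, and the lower panel draws genes with their strand. The 9 distal OCRs between 92 and 51 kb upstream reach a mean of 81.2, below the OCR 11.6 kb downstream and above the OCR at the 5′-most start.

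In the Lyl1 window, 7 of 19 merged OCRs (36.8%) had a peak in every library, where 46.2% of all merged OCRs did, and 3 when peaks had to overlap reciprocally by 50%. Another 9 were found in 2 to 6 libraries and 3 in HPC7-1 alone. OCRs missing from at least 1 library reached a fold enrichment of at most 5.66. Of the 19, 2 lay within 3 kb of the Lyl1 start, 7 only within 3 kb of a start of another gene and 10 were distal. A peak in every library was found in 2 of the 10 distal OCRs, against 41.9% of the distal OCRs of the genome, and only 1 of these 2 had a peak inside the window in every library.

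The most accessible point of the locus lay 1.37 kb upstream of the annotated Lyl1 start in all 7 libraries. Fold enrichments there were 277, 260, 267, 367, 190, 216 and 282 in HPC7-1, HPC7-2, HPC7-4, HPC7-5, HPC7-6, HPC7-7 and HPC7-8, the highest in HPC7-5 and the lowest in HPC7-6. They rested on 1215 to 5923 reads at the summit and ranked at the 99.7 percentile or higher in each library. The 7 summits lay within 11 bp, and the mean ranked 122 among the 66979 OCRs with a peak in every library. The position is between the end of Trmt1 and the start of Lyl1, inside an exon of a noncoding Nfix transcript in GENCODE and outside any RefSeq exon. Against the Lmo2 OCR 11.6 kb downstream of its 5′-most start, this OCR was 2.56 ± 0.144 times as high in the same libraries (SD, n = 7; range 2.31 to 2.73).

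The peak at this summit also covered the whole Lyl1 gene. It was 6929 to 11213 bp wide, with a median of 7295 bp, and above the 99.9 percentile of widths in every library. In HPC7-1 it was 1 peak of 11.2 kb, while in the other 6 libraries a separate peak followed with its summit 7.87 to 7.92 kb downstream of the start, at fold enrichments from 41.1 to 80.4. In 4 libraries a further peak was called with its summit 5.28 to 6.19 kb downstream, at 23.8 to 30.4. Merging over libraries joined these into an OCR of 11335 bp that also reaches starts of short Nfix transcripts. This merged OCR lay within 3 kb of a Trmt1 start as well.

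A second OCR counted with the Lyl1 promoter by its overlap had its summit 3.6 kb upstream, within a Trmt1 exon, and fold enrichments of 32.6, 29.0, 21.9, 38.1, 19.4, 27.8 and 35.1. It also lay within 3 kb of a Trmt1 start. The summit 1.4 kb upstream was 9.28 ± 1.50 times as high (SD, n = 7).

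The strongest distal OCR of Lyl1, with the 2 AGATAA matches and the composite shown above, lay 29.5 kb downstream in an Nfix intron. Fold enrichments were 119, 101, 95.8, 126, 84.0, 96.4 and 113 in the library order above, at percentiles from 94.7 to 96.7. It was above the strongest distal OCR of Lmo2 in 7 of 7 libraries, 1.31 ± 0.111 times as high, and it ranked 500 among the 40438 distal OCRs with a peak in every library. Which gene it acts on was not measured. The other distal OCR found in every library, 31.1 kb upstream beside the end of Nacc1, a BTB domain gene, had fold enrichments of 7.44, 5.88, 5.56, 7.83, 4.85, 6.26 and 8.74. The summit of its strongest peak lay just outside the window in every library. The OCR was a member only because peaks of HPC7-1, HPC7-4 and HPC7-7 reached inside. The value printed for HPC7-4 comes from the stronger of 2 peaks, which lay outside, while the weaker peak and its summit lay inside. The peaks of the other 4 libraries lay outside. The next 4 distal OCRs were weak and missing from 1 to 4 libraries. The OCR 24.0 kb upstream had 5.66, 3.19, 5.05, 4.22, 4.22 and 4.51 in HPC7-1 and HPC7-4 to HPC7-8, and the OCR 27.2 kb downstream had 2.85, 2.94, 2.60, 3.13, 3.13 and 3.64 in the libraries other than HPC7-7. The OCR 28.9 kb upstream had 2.62, 2.60, 2.96, 2.97 and 2.91 in HPC7-1 and HPC7-4 to HPC7-7, and the OCR 19.0 kb upstream had 2.71, 2.96 and 2.97 in HPC7-1, HPC7-4 and HPC7-6. None of these reached the level of the OCR 29.5 kb downstream in any library.

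Start regions of other genes made up 3 of the 7 Lyl1 OCRs found in every library. An OCR over starts of Trmt1 and Nacc1 had its median summit 12.2 kb upstream, with fold enrichments from 47.1 to 88.8. Its summits fell at 2 places, up to 1527 bp apart, of which the farther one was the summit in HPC7-1, HPC7-7 and HPC7-8. The OCR at the start of G430095P16Rik, 21.6 kb downstream, had 59.6 to 104. An OCR within 3 kb of the start of a short Nfix transcript had its median summit 11.2 kb downstream and fold enrichments from 8.92 to 19.0. Its summits also fell at 2 places, up to 2308 bp apart, with HPC7-1 and HPC7-5 at the one farther downstream, so that these values mix positions. Within the order of the 7 levels every neighbour was higher than the next in 7 of 7 libraries, by more than the spread of the log2 ratio.

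**Figure D2:**
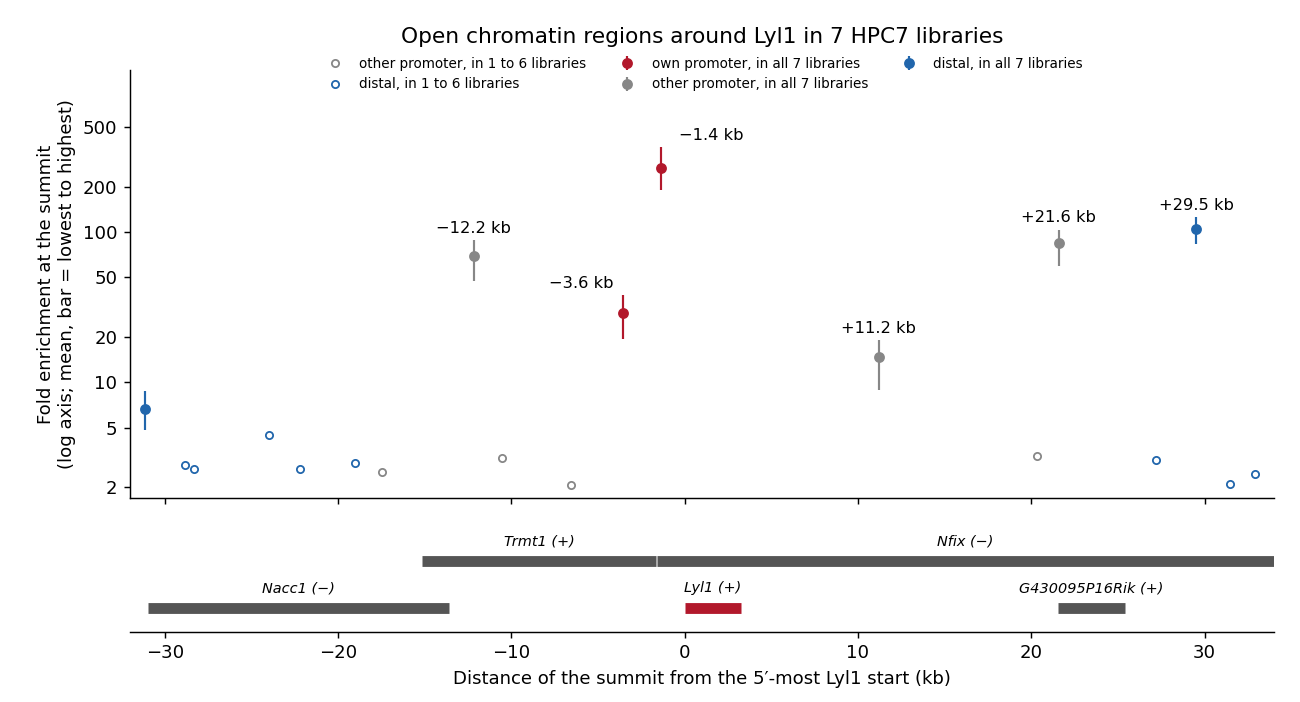
OCRs of the Lyl1 window, drawn as for Lmo2, with distance from the Lyl1 start in kb (x) and fold enrichment on a log axis (y). The summit 1.4 kb upstream lies between 190 and 367 in the 7 libraries, and the OCR 29.5 kb downstream has the highest of the distal values.

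The levels of the 31 OCRs found in every library moved with the library. HPC7-6 gave the lowest fold enrichment in 27 of the 31, while the highest came from HPC7-5 in 12, from HPC7-8 in 11 and from HPC7-1 in 8. The coefficient of variation over libraries had a median of 19.6% in the Lmo2 window and 21.1% in the Lyl1 window. By percentile HPC7-6 was again most often the lowest, in 18 of the 31, while the highest value came from HPC7-1 in 21, from HPC7-8 in 9 and from HPC7-5 in 1. The SD of the percentile over libraries ranged from 0.856 to 13.8 points for Lmo2 and from 0.0696 to 8.58 points for Lyl1. A percentile cannot pass 100, which holds its SD down at the strongest OCRs. A percentile also depends on how many weak OCRs the list of the library holds. The lists of HPC7-1 (132852 OCRs) and HPC7-8 (124126) were the longest, and that of HPC7-6 (84593) was the shortest. The part of library depth and of list length in these differences was not tested.

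**Figure D3:**
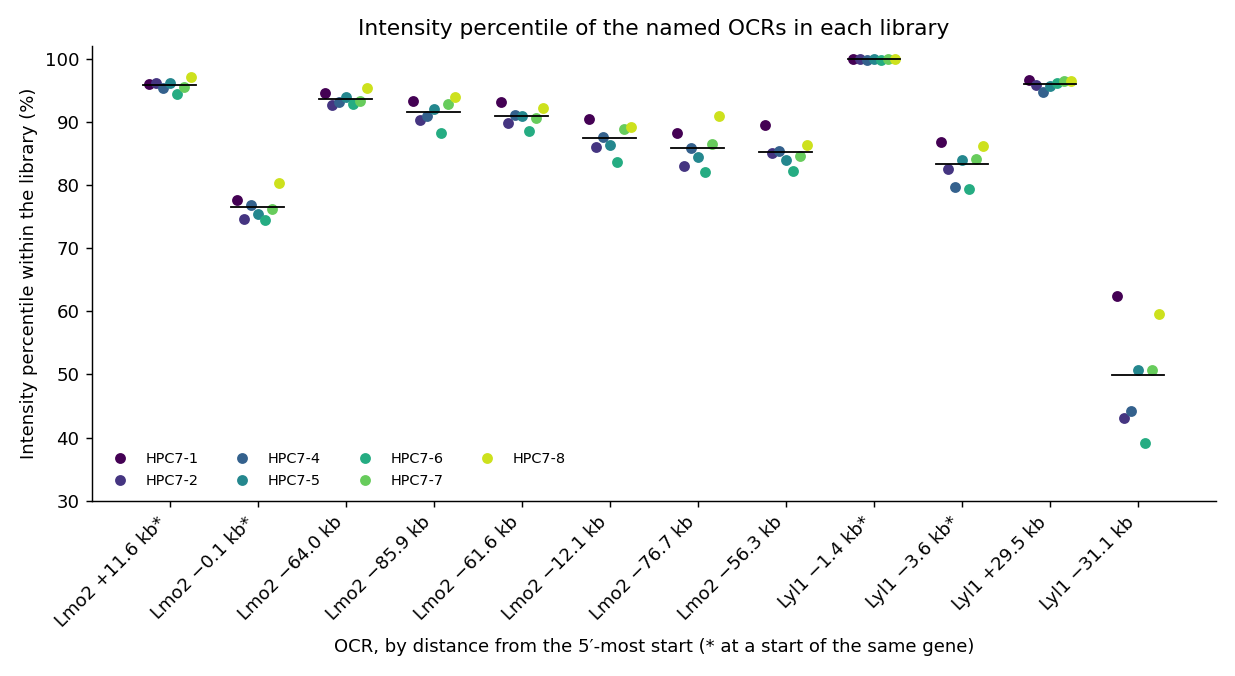
Intensity percentile within the library (y) of the OCRs at starts of Lmo2 and Lyl1 and of the strongest distal OCRs found in every library (x), with 1 point per library and a line at the mean. The Lyl1 OCR 1.4 kb upstream lies at 99.7 or higher in every library, and the Lyl1 OCR 31.1 kb upstream spans 39.2 to 62.4.

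Lmo2 and Lyl1 were then compared within each library in 3 measures, by an exact two-sided sign-flip permutation test over the 7 libraries, in which 0.0156 is the smallest p possible, adjusted by Benjamini-Hochberg over the 3 tests. The p-values measure only the spread between these libraries. All are of the same cell line and were scored against the same annotated starts, so a small p says nothing about loci in general. The share of OCRs that were distal was 80.0% ± 4.83 at Lmo2 and 32.5% ± 11.3 at Lyl1 (SD, n = 7). Of the merged OCRs, 38 of 45 were distal at Lmo2 and 10 of 19 at Lyl1, beside 96540 of 144931 over the genome. The libraries of the loci did not overlap, with 70.3 to 85.7% at Lmo2 and 16.7 to 52.6% at Lyl1, and the difference of 47.6 ± 11.5 percentage points had an exact p = 0.0156, adjusted p = 0.0156. With 30 kb on either side of both genes the difference was 50.3 percentage points in the same exact test (p = 0.0156). With 100 kb on either side of both it fell to 22.9 percentage points, as Lyl1 then had a distal share of 57.1% ± 3.73 (SD, n = 7; exact p = 0.0156).

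OCR density was lower at Lmo2, with 1.69 ± 0.168 OCRs per 10 kb against 2.64 ± 0.425 at Lyl1 (SD, n = 7), and lower in 7 of 7 libraries (exact p = 0.0156, adjusted p = 0.0156). The difference of -0.951 shrank to -0.156 per 10 kb when both genes were given 30 kb on either side (exact p = 0.234), and the call was then lost. With 100 kb on either side of both it was -0.650 (exact p = 0.0156), with a −log10 q of at least 5 it was -0.615 (exact p = 0.0156), and with the 84593 strongest peaks of every library -0.483 (exact p = 0.0312). OCRs covered 14.8% ± 2.48 of the Lmo2 window and 42.0% ± 5.31 of the Lyl1 window.

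The strongest distal OCR was also set against the gene's own promoter in each library. At Lmo2 the log2 ratio was -0.36 ± 0.098, and at Lyl1 it was -1.33 ± 0.15, a difference of 0.97 ± 0.13 in the same direction in 7 of 7 libraries (exact p = 0.0156, adjusted p = 0.0156, n = 7). It depended on the OCRs beyond 30 kb: with 30 kb on either side of both genes the strongest distal OCR of Lmo2 was the one 12.1 kb upstream, the log2 ratio was -1.27 ± 0.19, and the difference from Lyl1 was 0.056 ± 0.15 (exact p = 0.375). With 100 kb on either side of both the difference was 0.87 ± 0.15 (exact p = 0.0156).

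**Figure D4:**
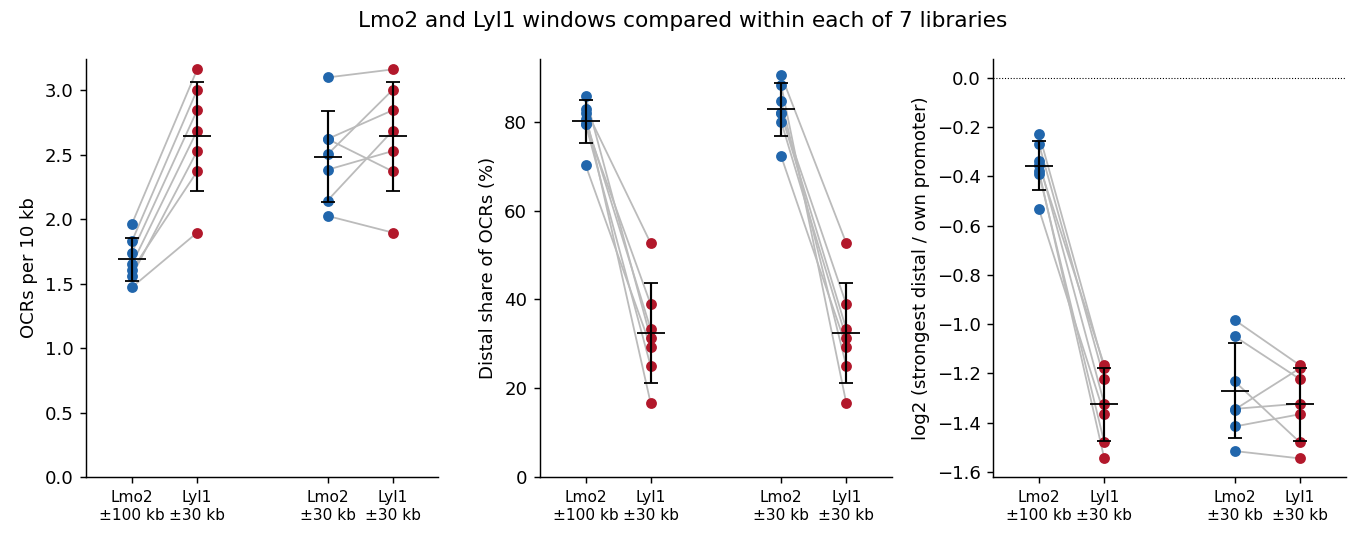
OCRs per 10 kb, distal share in % and log2 ratio of the strongest distal OCR to the own promoter (y of the 3 panels) for Lmo2 and Lyl1 (x), with the windows of the comparison at left and 30 kb on either side of both genes at right. Points are libraries joined by lines and bars are mean ± SD: the distal share does not overlap in either pair of windows, the density overlaps in both, and the log2 ratio overlaps with 30 kb on either side of both genes.

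Equal windows around all 21938 protein-coding genes place these counts. Within 100 kb of the gene body Lmo2 had 20 distal OCRs with a peak in every library, where the median gene had 5 and 97.9% of genes had as many or fewer. Lyl1 had 12 in a window of that size, and 88.9% of genes had as many or fewer. With 30 kb on either side Lmo2 had 10 and Lyl1 2, the latter equal to the median gene. Long genes have longer windows by this count, and 15.6% of genes had none within 100 kb. By the strongest distal OCR within 30 kb, Lyl1 stood higher than Lmo2: 97.2% of genes had an equal or lower value than its 105, and 85.4% an equal or lower value than the 43.2 of Lmo2.

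**Figure D5:**
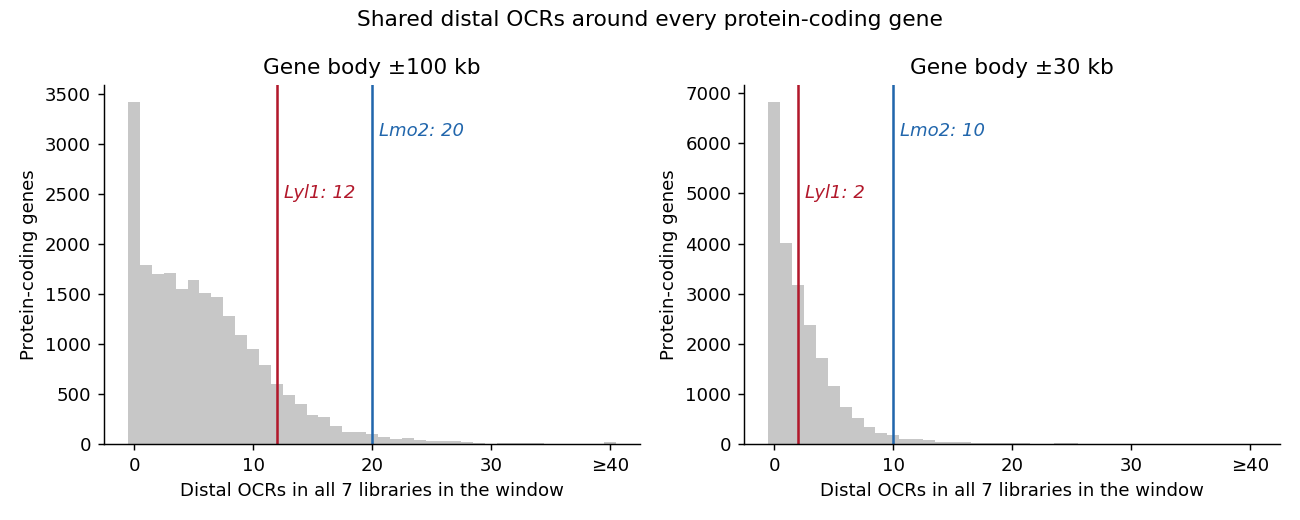
Number of protein-coding genes (y) by their number of distal OCRs with a peak in all 7 libraries (x, 40 and more pooled) within 100 kb (left) and 30 kb (right) of the gene body. Lines mark Lmo2 at 20 and 10 and Lyl1 at 12 and 2.

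The promoters of genes whose products work with LMO2 and LYL1, or regulate blood cells beside them, were then counted. All 17 partners and blood regulators of the list had a promoter OCR in every library, where 60.8% of protein-coding genes did. Mean fold enrichments ranged from 39.3 at Tcf12, an E protein gene, and at Gata1 to 284 at Ssbp4, of a protein family known to bind LDB1. Tal1 ranged from 65.9 to 105 over the libraries and Ldb1 from 63.4 to 119. Gata1 ranged from 11.0 to 57.6, with a median of 48.0. Ranked among the promoter OCRs of protein-coding genes, Lyl1 stood on average at the 99.0 percentile and Lmo2 at the 68.3 percentile, with Tal1 at 60.2 and Ldb1 at 61.8.

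Of 6 relatives of the 2 genes, 2 had a promoter OCR in every library, beside the 60.8% of protein-coding genes. Lmo4, a widely used LIM-only gene, had a mean fold enrichment of 90.9 ± 16.9 (SD, n = 7) and Lmo1 had 21.1 ± 3.60. Lmo3 had an OCR in 1 library and Nhlh1 in 3. Tal2, a close relative of Tal1 and Lyl1, and Nhlh2 had none in any library.

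Motif letters were also counted at the summits of all OCRs found in every library. Of the 24 of the Lmo2 window, 9 held at least 1 of the 3 E-box forms, beside 31.4% of all OCRs found in every library, 5 an ETS form beside 17.9%, and 2 AGATAA beside 11.9%. TGTGGT stood in 2 of the 24 beside 22.8%. In the Lyl1 window 4 of 7 held an E-box form, 1 an ETS form, 1 AGATAA and 1 TGTGGT. Among the 31 OCRs, the composites were at the Lyl1 OCR 29.5 kb downstream and at the Lmo2 OCR 27.1 kb upstream, which had fold enrichments from 21.3 to 31.1. The GC content of the windows had a median of 51.3% in the Lmo2 window and 54.3% in the Lyl1 window, beside 51.7% over all OCRs found in every library.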

How the data were processed

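Bulk ATAC-seq peak lists of the 7 HPC7 libraries were used as deposited. Per the labels and the paper, the authors used Cutadapt for trimming, BWA for alignment to mm10 and MACS2 for peak calling, 1 library at a time; versions and settings are not given in the sources used here. The authors' lists give, per peak, a fold enrichment (a ratio of pile-up to background), −log10 p and −log10 q, a score and the summit offset. All deposited fold enrichments were whole multiples of a step within 0.1, from which reads at summits and the background reads per library were derived, on the assumption that MACS2 added 1 read to both; this addition lowers the ratio more where the background is low. No total read depth is given in the lists, which hold peaks that had passed the caller's threshold, so that an absent peak is not a measured 0. Peak names begin with VD in 3 libraries and EtOH in 4; the labels give no such conditions, and the prefixes were used only for a check.

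Windows and starts came from GENCODE M21. An OCR was at a promoter when any base lay within 3 kb of a transcript start and distal otherwise. Named with all values were the OCRs at starts of Lmo2 and Lyl1 and the 6 distal OCRs per window with the highest mean fold enrichment, a library without a peak counting as 0. The members, gene lists and tests were chosen with earlier results of these data known. The value of 1 listed gene is not reported here. Measures were compared within libraries by exact sign-flip permutation over all 128 sign patterns. The tests were checked on simulated data. Sequences came from the RefSeq GRCm38.p6 genome, whose lengths for 21 chromosomes held all peaks, and its promoter table, which matched 1 of the 2 genes. The alternatives tried were equal numbers of peaks, a minimum −log10 q of 5, promoters of 1 kb, protein-coding starts, equal windows, −log10 p as intensity, 50% reciprocal overlap, each library left out, and the peak-name subsets; class by summit was added after seeing the data. Scripts ran under Python 3.11.15 with pandas 2.3.3, scipy 1.17.1, numpy 2.4.6, matplotlib 3.10.9 and bedtools 2.31.1.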

Additional observations from a re-analysis of the deposited data

Results flagged for a closer look

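Of 39 measures over the 7 libraries, 3 had 1 library far from the others, by a test that chance passes in about 1 of 20 groups. HPC7-5 had the lowest distal share in the Lmo2 window, 70.3%, with the nearest library at 79.5%. HPC7-1 had the highest background, 20.4 reads, with the nearest library at 7.45. OCRs of HPC7-1 covered 19.8% of the Lmo2 window, with the nearest library at 15.4%. The cause was not tested.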

How the results depend on the processing

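The direction of the mean of each of the 3 contrasts was the same under each alternative run. Single libraries could differ when both genes were given 30 kb on either side. The density was then higher at Lmo2 in HPC7-2 and HPC7-7, and the log2 ratio was lower at Lmo2 in HPC7-2, HPC7-6 and HPC7-8. With 30 kb on either side of both genes 2 calls were lost, as the density difference was -0.156 OCRs per 10 kb (exact p = 0.234) and the log2 ratio difference 0.056 (exact p = 0.375); the Lmo2 window then held 20.9 OCRs per library (37.9 in its full window), 12 in every library (24), and its strongest distal OCR stood at the 87.4 percentile (93.6). With 100 kb, the Lyl1 window held 47.6 OCRs per library (16.7) and 24 in every library (7), and the 3 differences were -0.650, 22.9 points and 0.87. Lyl1 had 13.9 OCRs per library when the −log10 q had to reach 5. With the 84593 strongest peaks of each library, Lmo2 had 31.1 and Lyl1 11.9 per library, and the percentile was 92.2. Under 50% reciprocal overlap 18 Lmo2 OCRs and 3 Lyl1 OCRs were in every library.

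Leaving out each library in turn changed no call, with density differences from -1.04 to -0.910, distal share differences from 44.7 to 50.5 points and log2 ratio differences from 0.94 to 0.99, each at an exact p = 0.0312, the smallest that 6 libraries allow. In the libraries named EtOH the 3 differences were -0.990, 49.3 and 0.98, and in those named VD -0.900, 45.3 and 0.96, with no test. With class by summit, chosen after seeing the data, the distal share differed by 43.7 points. Peak lists limit what weak OCRs can show: those missing from a library were not measured there.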
